A study of Mus musculus with 35 samples.

Results

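The genes described here encode the subunits of the 5 complexes of oxidative phosphorylation that are made from nuclear DNA. They were taken by name and by annotated biotype from a mouse liver count table. Protein-coding genes were kept whose symbol belongs to the Nduf, Sdh, Uqcr, Cox (numbers 4 to 8) or Atp5 families and whose counts summed to 10 or more over all mice. This gave 82 of the 55413 genes in the table, with 37 in complex I, 4 in complex II, 8 in complex III, 16 in complex IV and 17 in complex V. A filter on low counts left 77 of the 82 for testing. The 5 that did not pass were Ndufa4l2, Cox4i2, Cox6a2, Cox6b2 and Cox8b, isoforms known mainly from other tissues or from low oxygen. Another 12 genes with matching names were left out as 11 processed pseudogenes and 1 long non-coding RNA, and 3 protein-coding genes (Cox7b2, Cox8c and a second gene named Atp5o) were left out for low counts. Subunits encoded by mitochondrial DNA were not analysed here, as a search by name found 0 of them in the count table.

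Oxidative phosphorylation takes electrons from NADH at complex I and from succinate at complex II, and passes them through ubiquinone, complex III and cytochrome c to oxygen at complex IV. Complexes I, III and IV pump protons across the inner mitochondrial membrane, and complex V uses the return of those protons to make ATP. In hepatocytes this supply of ATP carries the synthesis of glucose, urea and plasma proteins, and liver tumours often differ from normal liver in how much they rely on it.

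RNA was measured in livers of C57Bl6 mice by sequencing the 3′ ends of polyadenylated transcripts, in a study of how an antisense oligonucleotide (ASO) against Smyd3, a lysine methyltransferase, affects liver tumours. The Smyd3-ASO group (6 mice) and the control ASO group (6 mice) received 25 mg/kg of the liver carcinogen diethylnitrosamine (DEN) on postnatal day 14. Their ASO was injected 2 times a week at 50 mg/kg from day 133, and their livers were taken on day 260. The P133 group (4 mice) received the same DEN dose and no ASO and was harvested at day 133. The untreated group (5 mice) received neither agent and was harvested at day 260. All 3 DEN groups are labelled as tumours of hepatocellular carcinoma type and the untreated samples as normal liver cells. Each RNA came from pieces of liver, and no untreated group of the age of P133 was used here. Age and ASO change together in control ASO over P133. Over untreated, DEN and tumour change together, joined by the ASO injections in both ASO groups and by the earlier harvest in P133. Within each comparison these cannot be told apart.

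Total counts ran from 4556484 to 20258619 per mouse, with all P133 mice between 4556484 and 6447397. Levels are given as CPM, counts scaled to a common library size, after TMM scaling, which sets each library against the bulk of genes. The TMM factors of untreated livers lay at 0.567 to 0.784, below all others (0.983 to 1.42), and their 10 most abundant genes held 24.9 to 32.2% of counts, against 9.46 to 22.9% elsewhere. Scaling to library totals instead moved the median of all genes by 0.85 on the log2 scale in control ASO over untreated, by 0.90 in Smyd3-ASO over untreated, by 0.59 in P133 over untreated, by 0.25 in control ASO over P133 and by 0.03 in Smyd3-ASO over control ASO. Changes against untreated livers are therefore read relative to the median gene. Smyd3 itself lay at 0 to 0.757 CPM in Smyd3-ASO livers, 3.11 to 4.62 in control ASO, 2.66 to 5.47 in P133 and 2.36 to 5.08 in untreated livers.

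Some libraries stood apart. Control ASO mouse 1 carried skeletal muscle transcripts. The 5 muscle genes Acta1, Ckm, Mb, Myh1 and Myh4 summed to 544.5 CPM there and to at most 1.89 CPM in any other mouse. Untreated mouse 5 had a mean member deviation from all mice of -0.03 on the log2 scale, while the other untreated mice lay at 0.32 to 0.41. Control ASO mice 1 and 3 lay at 0.01 and -0.01, and the other control ASO mice at -0.55 to -0.34.

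The Smyd3-ASO livers held more transcript of many of these genes than the control ASO livers. Of 77 members tested, 24 were higher and 0 lower (edgeR's quasi-likelihood test, Benjamini-Hochberg adjusted p below 0.05), or 31.2% of members, against 13.3% of all 15297 genes called higher and 12.9% called lower. Among genes at least as abundant as a mean log2 CPM of 4, where 75 of the members lie, 19.4% were called higher and 12.6% lower. The members had a median log2 change of 0.30, against 0.01 over all genes, and 65 of 77 had a positive change. All 6 Smyd3-ASO mice lay above all 6 control ASO mice for 9 members and below them for 0, against 5.28% and 5.82% of all genes. The count of higher members was 25 without control ASO mouse 1, 27 without mouse 3 and 15 without mouse 6. In pieces of tissue, fewer cells of a type and less RNA per cell cannot be told apart. The labels call the mice biological replicates, and the p-values judge group differences against the spread between mice.

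Summed over all 82 members, the level ran from 20433 to 27688 CPM (median 24388) in Smyd3-ASO livers, against 14839 to 21571 CPM (median 17457) in control ASO livers. Only Smyd3-ASO mouse 6, the most shallowly sequenced of its group, lay below the highest control ASO mice. The sum was 21830.5 to 23007 CPM in P133 livers and 20109 to 27698 CPM in untreated livers, with untreated mouse 5 at the low end. As a share of all counts, without TMM scaling, untreated livers were low instead. The members held 2.55 to 3.51% in Smyd3-ASO, 1.92 to 2.52% in control ASO, 2.16 to 2.27% in P133 and 1.25 to 2.17% in untreated livers, so every Smyd3-ASO mouse lay above every other mouse.

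**Figure D1:**
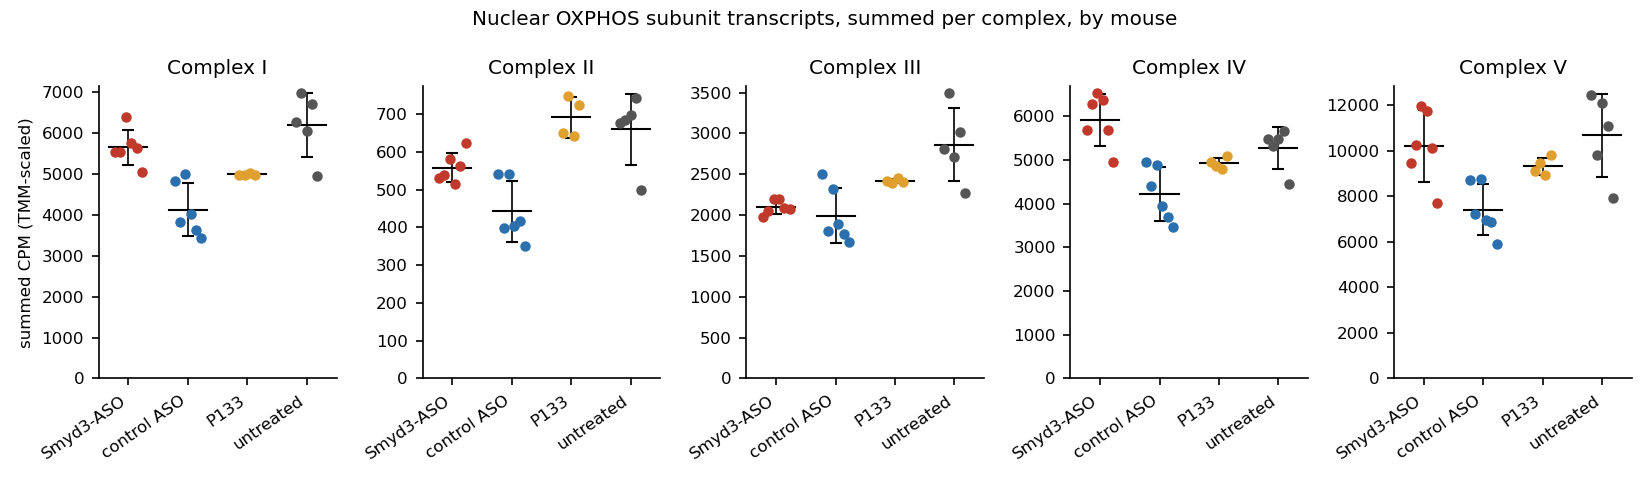
Summed TMM-scaled CPM of the subunit genes of each complex (y axis) for each mouse (points) in the 4 groups (x axis), with the mean (line) and SD (bar). On this scale all control ASO mice but mouse 3 lie below all Smyd3-ASO, P133 and untreated mice for complex I. For complex II all but mice 1 and 3 do. As a share of all counts the untreated livers are low, at 1.25 to 2.17%.

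Against untreated livers most members lay below the median gene in all 3 DEN groups, and the split into lower and higher calls depended on the scaling. In control ASO over untreated, 44 members were lower and 1 higher with TMM, against 22.2% and 23.7% of all genes, and 8 lower and 36 higher with library totals. Among abundant genes the TMM shares were 34.2% lower and 21.4% higher. The mice of the groups did not overlap for 25 lower members and 1 higher, against 13.8% of all genes each way. Relative to the median of all genes, 72 of 77 members lay lower with either scaling, and their median stood 0.50 below it on the log2 scale with TMM and 0.49 below with library totals. A change of scaling moves all genes of a comparison by nearly the same amount. Agreement of the scalings relative to the median gene was therefore largely fixed in advance in each comparison, and adds no support. In Smyd3-ASO over untreated, 32 members were lower and 7 higher with TMM (all genes, 23.2% and 24.4%), and 3 lower and 44 higher with library totals, while 50 of 77 lay below the median gene with either. Among abundant genes 31.2% were lower and 23.5% higher with TMM. The groups did not overlap for 22 lower members and 4 higher, against 14.6% and 13.8% of all genes. In P133 over untreated, 24 were lower and 4 higher with TMM (all genes, 16.6% and 15.1%), and 5 lower and 24 higher with library totals, with 59 of 77 below the median gene with TMM and 58 with library totals. Among abundant genes 23.6% were lower and 19.7% higher with TMM. The groups did not overlap for 25 lower members and 8 higher, against 14.6% and 12.5% of all genes. Leaving out untreated mouse 5 gave 35 lower members in Smyd3-ASO, 49 in control ASO and 37 in P133. Leaving out control ASO mouse 1 or mouse 3 gave 47 lower members in control ASO over untreated each time. These comparisons share the untreated mice, so their values are set side by side and their overlap is not counted.

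Control ASO livers also lay below the earlier P133 livers. Of 77 members, 21 were lower and 1 higher, against 12.6% and 14.4% of all genes and 22.3% and 14.6% of abundant genes, with a median log2 change of -0.26 (all genes, 0.03). Every control ASO mouse lay below every P133 mouse for 18 members and above them for 0, against 10% and 11.3% of all genes. The count of lower members was 29 without control ASO mouse 1 or mouse 3, and 13 without P133 mouse 1, 2 or 4. With library totals 8 were lower and 9 higher. Below the median gene lay 66 of 77 with either scaling, an agreement again largely fixed in advance.

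**Figure D2:**
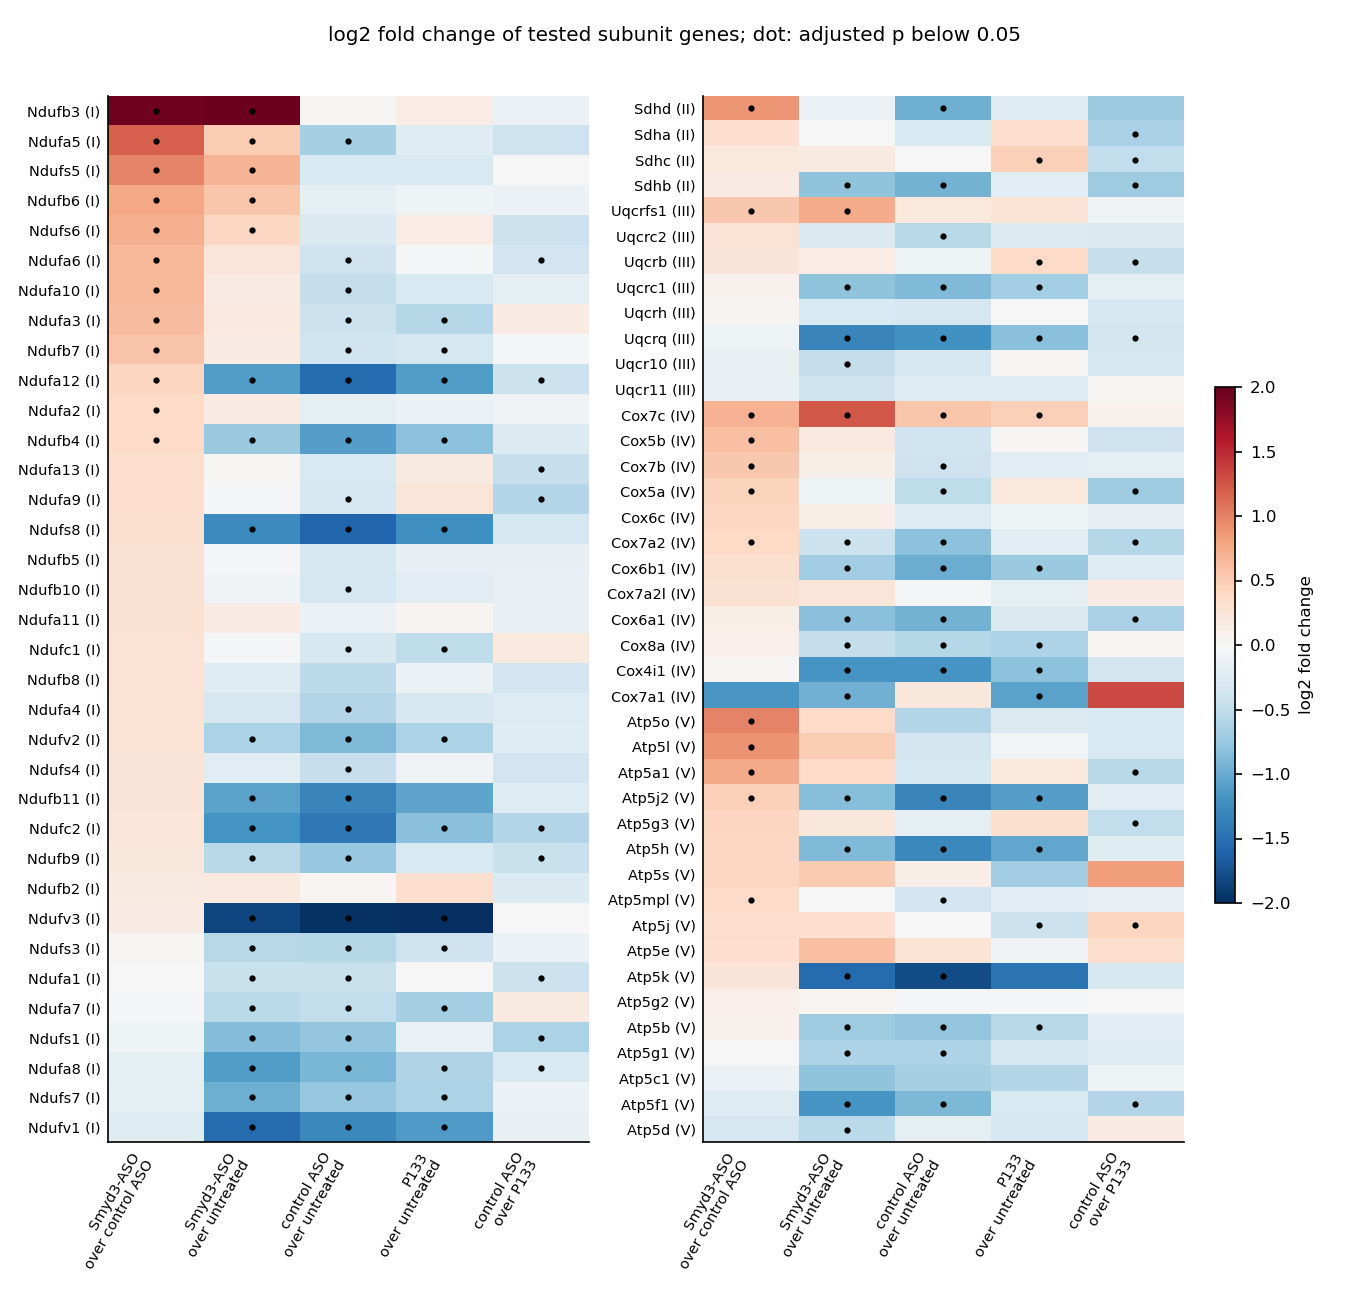
Log2 fold change (colour, from -2 to 2, TMM scaling) of tested subunit genes (rows, complex in brackets) in the 5 comparisons (columns), with a dot where the adjusted p was below 0.05. The first column is mostly positive with Ndufb3 at its top (1.95), and the third, control ASO over untreated, is mostly negative with Ndufv3 at -1.98; with library totals the members' median in that column is 0.41 in place of -0.44.

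Promoters of some members, picked by hand, are printed to show what lies before their starts. Ndufb4 is among them, though its rise in Smyd3-ASO over control ASO was among the smaller ones called. RefSeq windows on GRCm38.p6 (mm10), with 250 bases before and 50 after a start, were found for 65 of the 82 members, 70 windows in all. Motifs of 4 factors known to act on such genes were searched on both strands, and none of these letter strings contains another. NRF1 (GCGCA, then any letter, then GCGC) matched 18 of 70 member windows, or 25.7%, against 4.60% of all 32851 windows. GABP (CCGGAAG) matched 22.9% of member windows and 8.86% of all, YY1 (AANATGGCG) 14.3% and 2.38%, and ERR (AAGGTCA) 11.4% and 4.72%. Among windows of members higher in Smyd3-ASO over control ASO, 8 of 22 held the NRF1 letters, against 10 of 46 among those that did not pass. The 22 windows belong to 21 genes, and both Ndufa5 windows hold these letters. In the same split ERR matched 18.2% against 8.70%. GABP (18.2% against 26.1%) and YY1 (9.09% against 17.4%) went the other way. These differences were not tested. A match is a string of letters and not a site.

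The printed windows hold up to 120 bases before the start that overlap no annotated exon, read 5′ to 3′ on the gene's own strand, with motif matches in capitals. They are Ndufb3 at chr1:58586324-58586383 (forward strand, the whole gap to Fam126b), Ndufv3 at chr17:31519995-31520114 (forward), Sdhd at chr9:50603850-50603909 (reverse), Cox7c at chr13:86046905-86047024 (reverse) and Ndufb4 at chr16:37654454-37654573 (reverse).
Ndufb3: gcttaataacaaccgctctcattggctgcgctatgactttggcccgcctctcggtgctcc
Ndufv3: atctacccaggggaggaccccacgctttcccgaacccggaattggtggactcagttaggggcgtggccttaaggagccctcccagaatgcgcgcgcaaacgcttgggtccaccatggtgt
Sdhd: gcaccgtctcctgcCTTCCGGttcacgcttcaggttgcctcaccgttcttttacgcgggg
Cox7c: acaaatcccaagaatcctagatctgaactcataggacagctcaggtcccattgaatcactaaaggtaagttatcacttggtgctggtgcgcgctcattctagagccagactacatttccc
Ndufb4: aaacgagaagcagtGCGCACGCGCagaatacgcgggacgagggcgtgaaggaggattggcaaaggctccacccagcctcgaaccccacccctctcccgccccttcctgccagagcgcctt
None of the 4 motifs falls in the printed windows of Ndufb3, Ndufv3 and Cox7c, Sdhd holds the GABP letters read from the other strand, and Ndufb4 holds the NRF1 letters. The same stretches of Atp5k and Atp5o were read, are not printed and hold none of the 4 motifs. The full windows counted above hold more. The full Atp5k window matched NRF1, ERR and GABP 1 time each, and that of Atp5o matched NRF1 1 time. The full Sdhd window also matched NRF1 and ERR, and that of Ndufb4 matched NRF1 3 times and ERR 1 time. The full windows of Ndufb3, Ndufv3 and Cox7c matched none of the 4.

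In complex I, the 7 core subunits carry the electron path. Ndufv1 binds NADH and flavin, Ndufv2 and Ndufs1 hold iron-sulphur clusters next to it, and the others, Ndufs8 among them, form the arm that leads to ubiquinone. In Smyd3-ASO over control ASO 0 of these 7 passed the test in either direction at an adjusted p below 0.05, with log2 changes from -0.24 (Ndufv1) to 0.32 (Ndufs8). Of the 28 accessory subunits, which surround the core and lend it stability, 12 were higher and 0 lower. Over all genes 13.3% were called higher and 12.9% lower, and among abundant genes 19.4% and 12.6%. The difference between core and accessory subunits was not tested. Against untreated livers with TMM, 6 of the 7 core subunits were lower in Smyd3-ASO, 6 in control ASO and 5 in P133. Of all genes 23.2%, 22.2% and 16.6% were lower in the same order, and of abundant genes 31.2%, 34.2% and 23.6%.

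Ndufv1 averaged 133 ± 18.4 CPM in Smyd3-ASO livers, 156 ± 35.4 in control ASO livers, 172 ± 23.2 in P133 livers and 380.1 ± 67.1 in untreated livers (SD, n = 6, 6, 4 and 5). All DEN mice lay below all untreated mice, with log2 changes of -1.54 ± 0.16, -1.29 ± 0.17 and -1.14 ± 0.16 (SE) over untreated. Ndufs8 averaged 43.5 ± 13.3, 34.6 ± 7.33 and 44.3 ± 2.61 CPM in the same 3 DEN groups, against 104 ± 10.5 CPM in untreated livers, again with no overlap. The Ndufs8 call in Smyd3-ASO over untreated ended with library totals, and its other calls and those of Ndufv1 over untreated held under every alternative.

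**Figure D3:**
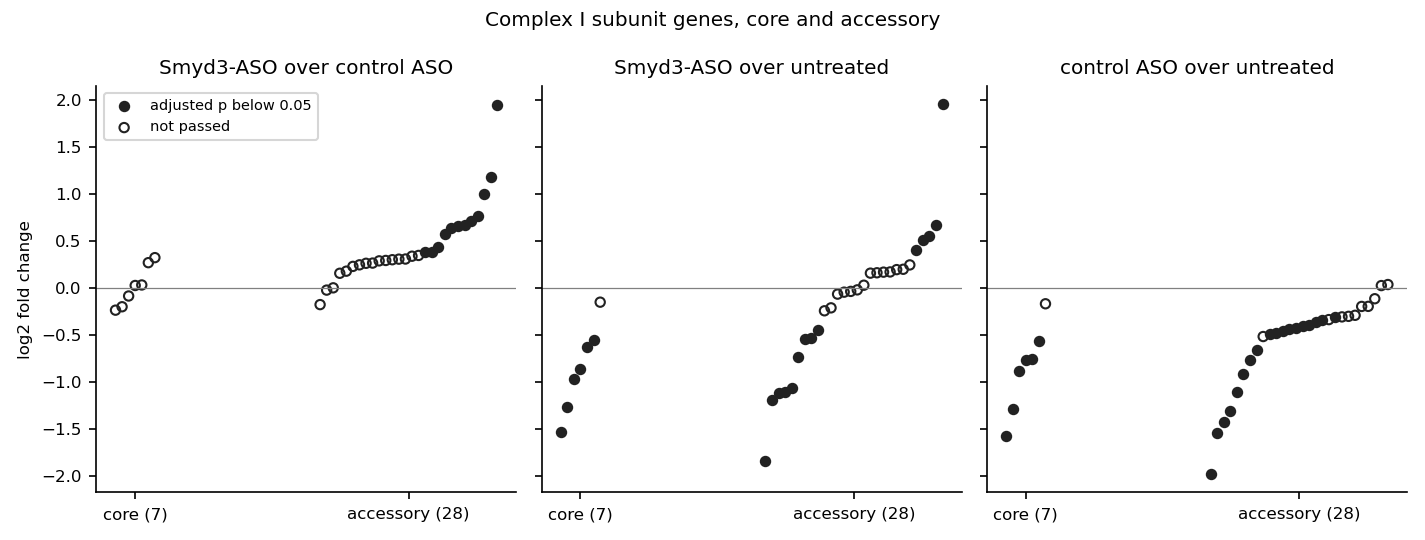
Log2 fold change (y axis, TMM scaling) of the 7 core and 28 accessory subunit genes of complex I in 3 comparisons, each point 1 gene, filled where the adjusted p was below 0.05. In Smyd3-ASO over control ASO none of the 7 core points is filled and 12 of the 28 accessory points are. Over all genes 13.3% were called higher and 12.9% lower there. Over untreated livers most core points lie below 0 and are filled, and with library totals they move up by 0.90 (Smyd3-ASO) and 0.85 (control ASO).

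Ndufb3, a small accessory subunit of the membrane arm of complex I, was the member with the largest rise. It ran from 338 to 781 CPM (median 619) in Smyd3-ASO livers and from 120.2 to 205 CPM (median 148) in control ASO livers. Levels were 159.5, 182, 146 and 179 CPM in P133 livers, and 156, 138, 167, 162 and 129.6 CPM in untreated livers. Every Smyd3-ASO mouse was above every other mouse of the study, and the other 3 groups overlapped with one another. The log2 change was 1.95 ± 0.21, adjusted p = 3.41e-05 over control ASO and 1.96 ± 0.21, adjusted p = 1.05e-05 over untreated livers, and it stayed past the threshold under every alternative setting. Control ASO livers differed from untreated livers by 0.03 ± 0.14 (adjusted p = 0.899).

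Ndufb3 lies on the forward strand of chromosome 1 (mm10, 58586384 to 58595964). Its first exon starts 60 bases beyond the start of Fam126b, which is transcribed from the opposite strand. Fam126b was also higher in Smyd3-ASO over control ASO, by 0.49 ± 0.13 (adjusted p = 0.0116). A pair of pseudogenes annotated on the same strand beyond the end of Ndufb3 were higher as well, Cbx3-ps7 by 1.19 ± 0.37 (adjusted p = 0.0281) and Gm20257 by 1.77 ± 0.59 (adjusted p = 0.0407). Orc2, which lies beyond Fam126b, gave 0.10 ± 0.21 (adjusted p = 0.756). These neighbours were named after their values were seen.

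Ndufa5, an accessory subunit of the peripheral arm, ran from 139 to 189.6 CPM (median 151) in Smyd3-ASO livers and from 55.6 to 88.4 CPM (median 62.9) in control ASO livers. Its values were 85.8, 86.1, 103 and 93.5 CPM in P133 livers, and 121, 92.6, 112, 118 and 105 CPM in untreated livers. Smyd3-ASO mice were above all other mice, and control ASO mice below all untreated mice. It was higher in Smyd3-ASO over control ASO (1.19 ± 0.15, adjusted p = 0.000154) and over untreated (0.51 ± 0.14, adjusted p = 0.00785). In control ASO over untreated it was lower with TMM (-0.66 ± 0.15, adjusted p = 0.00208) and turned positive with library totals.

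Ndufs5, a small subunit on the outer face of the membrane arm, ran from 62.9 to 91.4 CPM (median 75.4) in Smyd3-ASO livers and from 27.8 to 48.8 CPM (median 37) in control ASO livers. The values were 37.8, 37.1, 41.9 and 34.7 CPM in P133 livers, and 44.7, 34.5, 76.3, 41.9 and 37 CPM in untreated livers. Smyd3-ASO and control ASO mice did not overlap, and untreated mouse 3 reached into the Smyd3-ASO range. Ndufs5 was higher over control ASO by 1.00 ± 0.15, adjusted p = 0.000376, and over untreated by 0.67 ± 0.20, adjusted p = 0.0136.

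Other accessory subunits of complex I that were higher in Smyd3-ASO over control ASO were Ndufb6 (0.77), Ndufs6 (0.72), Ndufa6 (0.67), Ndufa10 (0.66), Ndufa3 (0.63), Ndufb7 (0.57), Ndufa12 (0.43), Ndufa2 (0.38) and Ndufb4 (0.38), all as log2 changes. Ndufb6 and Ndufs6 were also higher over untreated livers, by 0.56 ± 0.15 and 0.41 ± 0.14, and the Ndufs6 call ended under 6 of 19 settings. Ndufa12 and Ndufb4 were still lower in Smyd3-ASO over untreated with TMM, at -1.12 ± 0.14 and -0.74 ± 0.16. With library totals both calls ended and the sign of Ndufb4 turned. These accessory subunits outside the 3 smallest adjusted p values of the complex, and Ndufv1 and Ndufs8 above, were named after their values were seen. The calls of Ndufb7, Ndufa12, Ndufa2 and Ndufb4 ended under 3 to 11 of 20 alternative settings.

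Ndufv3, a small accessory subunit next to the NADH site, showed the largest fall against untreated livers. It ran from 54.3 to 81.5 CPM (median 66.4) in Smyd3-ASO livers and from 53.1 to 72.2 CPM (median 56.7) in control ASO livers. Levels were 62.8, 61, 58.5 and 54.6 CPM in P133 livers, and 246, 244, 231, 244 and 213 CPM in untreated livers. All untreated mice stood far above all DEN mice, while the 3 DEN groups overlapped one another. The log2 change was -1.84 ± 0.14, adjusted p = 7.7e-07 in Smyd3-ASO, -1.98 ± 0.12, adjusted p = 8.81e-08 in control ASO and -1.99 ± 0.12, adjusted p = 9.64e-08 in P133, each over untreated. All 3 calls held under every alternative, library totals included. Smyd3-ASO over control ASO gave 0.16 ± 0.13 (adjusted p = 0.382), and control ASO over P133 gave 0.01 ± 0.12 (adjusted p = 0.957).

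**Figure D4:**
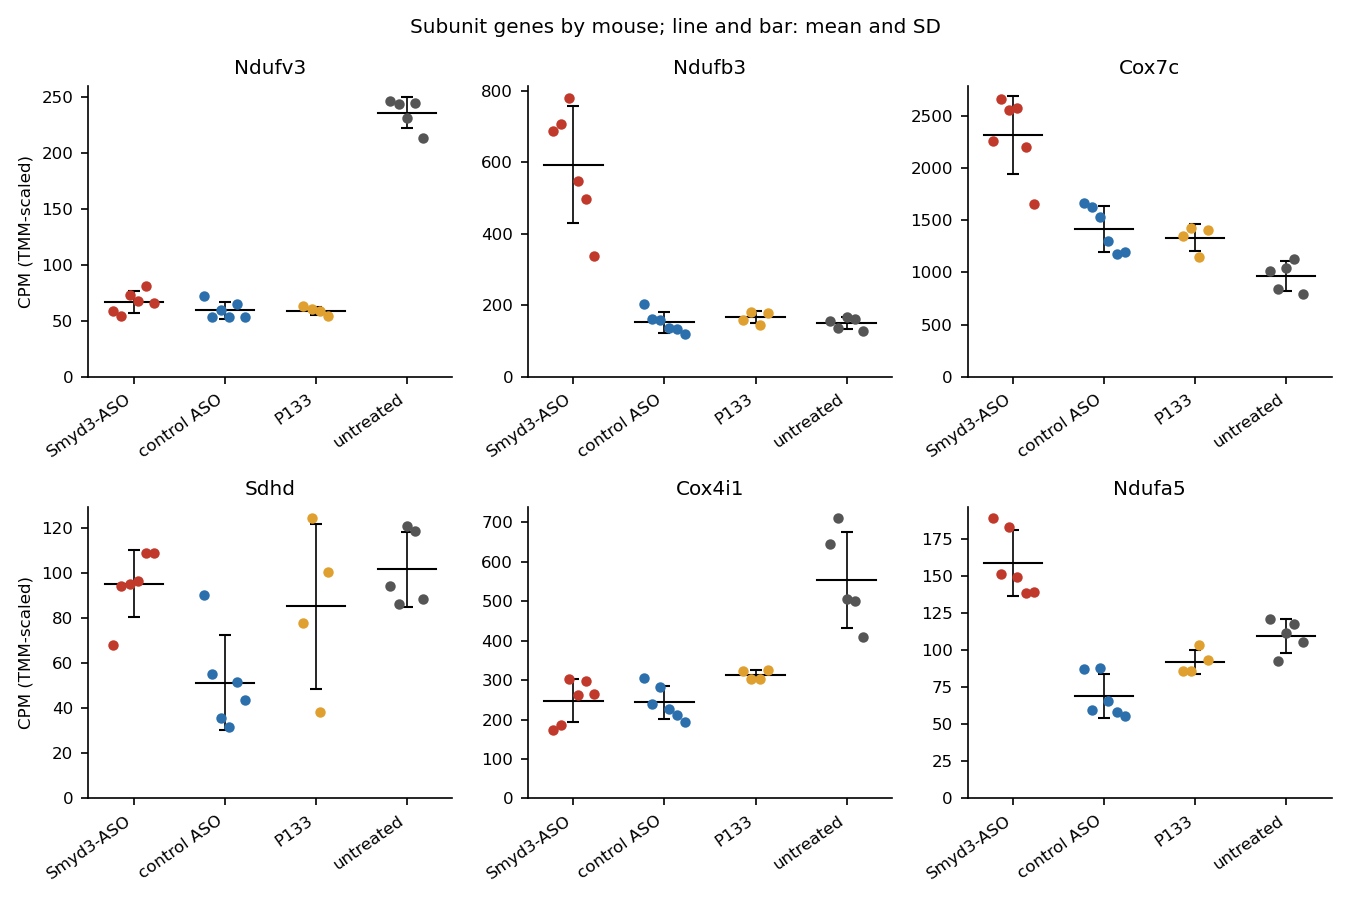
TMM-scaled CPM (y axis) of 6 subunit genes for each mouse (points) in the 4 groups (x axis), with the mean (line) and SD (bar). The 5 untreated mice stand alone at the top for Ndufv3 and the 6 Smyd3-ASO mice for Ndufb3, and Cox7c is lowest in untreated livers.

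Ndufa4 carries a complex I name and was later found in complex IV. It was lower in control ASO over untreated with TMM (-0.59 ± 0.18, adjusted p = 0.0154), turned positive with library totals, and passed no other comparison. Its paralog Ndufa4l2, known as a gene induced by low oxygen, stayed at 0 to 0.54 CPM in Smyd3-ASO, 0.324 to 0.965 in control ASO, 0 to 0.886 in P133 and 0.145 to 0.966 in untreated livers and was not tested.

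Complex II oxidises succinate and is also an enzyme of the citric acid cycle. Of its 4 genes, 1 was called higher in Smyd3-ASO over control ASO, against 13.3% of all genes and 19.4% of abundant genes. That gene was Sdhd, a membrane anchor. It ran from 68.2 to 109 CPM (median 95.7) in Smyd3-ASO livers and from 31.7 to 89.9 CPM (median 47.7) in control ASO livers. The other groups had 77.8, 124, 38.1 and 100.5 CPM in P133 livers, and 94.1, 86.1, 121, 118 and 88.5 CPM in untreated livers. Control ASO mouse 1 lay high among its group, and the P133 mice spread over most of the range. Sdhd was higher over control ASO (0.88 ± 0.22, adjusted p = 0.0104), and in control ASO over untreated it was lower (-0.98 ± 0.23, adjusted p = 0.00372), a call that ended with library totals.

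Sdha, the flavoprotein that binds succinate, ran from 163 to 203 CPM (median 167) in Smyd3-ASO livers and from 105 to 174 CPM (median 129) in control ASO livers. P133 livers had 201, 214, 214 and 226 CPM and untreated livers 166, 191, 192, 179 and 117 CPM. P133 mice were high, with Smyd3-ASO mouse 3 beside them, and untreated mouse 5 was among the lowest. Only control ASO over P133 passed (-0.65 ± 0.15, adjusted p = 0.00465), under every alternative. Smyd3-ASO over control ASO did not pass (0.34 ± 0.14, adjusted p = 0.082), and the small change in control ASO over untreated (-0.31 ± 0.16, adjusted p = 0.136) turned positive with library totals.

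Sdhb, the iron-sulphur subunit, averaged 163 ± 28.6 CPM in Smyd3-ASO livers, 145 ± 27 in control ASO, 238 ± 18.6 in P133 and 279 ± 54.9 in untreated livers (SD, n = 6, 6, 4 and 5). It was lower in control ASO over P133 (-0.71 ± 0.14, adjusted p = 0.00251) under every alternative. With TMM it was also lower over untreated in control ASO (-0.94 ± 0.16, adjusted p = 0.000358) and in Smyd3-ASO (-0.80 ± 0.17, adjusted p = 0.00185), but with library totals both calls ended and the sign turned in Smyd3-ASO. Sdhc, the other anchor, was higher in P133 over untreated (0.48 ± 0.15, adjusted p = 0.0206) and lower in control ASO over P133 (-0.49 ± 0.15, adjusted p = 0.0233). Leaving out P133 mouse 1 or 2, or adding the replicate block, ended both Sdhc calls. The first also ended without untreated mouse 1, and the second without P133 mouse 4 and with library totals.

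In complex III, 1 of 8 genes was higher and 0 lower in Smyd3-ASO over control ASO. This 12.5% lies near the 13.3% of all genes called higher and below the 19.4% of abundant genes. Uqcrfs1, the Rieske iron-sulphur protein of the catalytic core, ran from 153 to 274 CPM (median 233) in Smyd3-ASO livers and from 128 to 171 CPM (median 156) in control ASO livers. Values were 178, 147, 155 and 162 CPM in P133 livers, and 125, 125, 147, 142 and 126 CPM in untreated livers. Smyd3-ASO and control ASO mice overlapped through Smyd3-ASO mouse 6, and every Smyd3-ASO mouse lay above every untreated mouse. Uqcrfs1 was higher over control ASO (0.55 ± 0.15, adjusted p = 0.0177) and over untreated (0.74 ± 0.16, adjusted p = 0.00239), under every alternative.

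Uqcrq, a small accessory subunit of complex III, ran from 278 to 405 CPM (median 344) in Smyd3-ASO livers and from 304 to 441 CPM (median 353) in control ASO livers. P133 livers had 443, 476, 484 and 479 CPM and untreated livers 821, 869.7, 872, 903 and 757 CPM. Untreated mice stood above all DEN mice. The log2 change over untreated was -1.32 ± 0.15 in Smyd3-ASO, -1.21 ± 0.14 in control ASO and -0.84 ± 0.14 in P133, and the P133 call ended with library totals. Uqcrb, which helps hold the ubiquinone site, was higher in P133 over untreated (0.38 ± 0.13, adjusted p = 0.0426) and lower in control ASO over P133 (-0.47 ± 0.13, adjusted p = 0.0189). The first Uqcrb call ended under 9 of 17 settings, and the second with library totals and with the replicate block.

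In complex IV, 5 of 12 tested genes were higher in Smyd3-ASO over control ASO, against 13.3% of all genes and 19.4% of abundant genes. Cox7c, a small membrane subunit, was the member with a rise over untreated livers in each DEN group. It ran from 1658 to 2659.7 CPM (median 2407) in Smyd3-ASO livers and from 1176 to 1667 CPM (median 1415) in control ASO livers. Levels came to 1352, 1426, 1148 and 1411 CPM in P133 livers, and 1012, 839, 1046, 1130.4 and 796 CPM in untreated livers. Untreated mice lay below all DEN mice, and Smyd3-ASO and control ASO mice touched through Smyd3-ASO mouse 6. Cox7c was higher in Smyd3-ASO over control ASO (0.70 ± 0.16, adjusted p = 0.00681). Over untreated livers it was higher by 1.24 ± 0.19, adjusted p = 0.00015 in Smyd3-ASO, by 0.56 ± 0.17, adjusted p = 0.0144 in control ASO and by 0.47 ± 0.16, adjusted p = 0.0346 in P133. The P133 call ended with the replicate block and without P133 mouse 1, 2 or 4 or untreated mouse 1 or 2, and the other Cox7c calls ended under none. A 60-base transcript model, Gm22574, lies within Cox7c on the same strand and held 204532 counts, against 427194 for Cox7c. How the counting shared reads between them is not given in the sources used here, and Gm22574 changed by 0.69 ± 0.16 (adjusted p = 0.00622) in Smyd3-ASO over control ASO.

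Cox4i1, the widely expressed form of the regulatory subunit that Cox4i2 replaces in some tissues, ran from 174 to 302 CPM (median 264) in Smyd3-ASO livers and from 194 to 304 CPM (median 233) in control ASO livers. Its levels were 322, 304, 304 and 325 CPM in P133 livers, and 644, 711, 505, 501 and 410.4 CPM in untreated livers. The ASO groups overlapped fully, and all untreated mice lay above all DEN mice. Against untreated livers Cox4i1 was lower, at -1.18 ± 0.20, adjusted p = 0.000343 in Smyd3-ASO, -1.19 ± 0.17, adjusted p = 7.34e-05 in control ASO and -0.82 ± 0.17, adjusted p = 0.0017 in P133. Each of these calls ended with library totals, with the sign kept. Smyd3-ASO over control ASO gave 0.02 ± 0.17 (adjusted p = 0.947).

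Cox7b, Cox5b and Cox5a, all small subunits that surround the catalytic core, were higher in Smyd3-ASO over control ASO. Cox7b ran from 212 to 308 CPM (median 273) in Smyd3-ASO livers and from 145 to 216 CPM (median 179) in control ASO livers, a log2 change of 0.54 ± 0.14, adjusted p = 0.0112. Cox5b ran from 276 to 447 CPM (median 309.9) in Smyd3-ASO livers and from 153 to 272 CPM (median 233) in control ASO livers, a change of 0.60 ± 0.18, adjusted p = 0.0263 that ended without Smyd3-ASO mouse 3 or 4, or control ASO mouse 4 or 6. Control ASO mice lay below Smyd3-ASO mice for Cox5b, and the groups overlapped for Cox7b. Cox5a was higher over control ASO by 0.44 ± 0.14 and lower in control ASO over P133 (-0.71 ± 0.14, adjusted p = 0.0021); the first call ended under 6 of 20 settings, among them leaving out Smyd3-ASO mouse 5 or control ASO mouse 4, 5 or 6, and the second under none. Cox7a2 was the fifth gene called, at 0.41 ± 0.14, adjusted p = 0.0479, a call that ended under 13 of 20 settings. Cox7a2l, which joins complexes III and IV into supercomplexes, passed in none of the 5 comparisons, with log2 changes from -0.20 to 0.31; with library totals it turned to 0.81 in control ASO over untreated.

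The isoforms of complex IV known from heart and skeletal muscle were low in all mice but 1. Cox6a2 lay at 0 to 0.437 CPM in Smyd3-ASO livers, at 18.3, 0, 0, 0.168, 1.29 and 0.486 CPM in the 6 control ASO mice, at 0 to 0.42 in P133 and at 0 to 0.215 in untreated livers. Cox8b was 0 to 0.221 CPM in Smyd3-ASO livers, 6.59, 0, 0, 0, 0.107 and 0 CPM in control ASO mice, 0 to 1.1 in P133 and 0.118 to 0.58 in untreated livers. Cox7a1 lay at 1.02 to 1.33 CPM in P133 livers, on 5 to 7 counts per mouse, and at 1.66 to 3.86 CPM in untreated livers. It reached 7.95 CPM in control ASO mouse 1, against 0.48 to 2.21 in Smyd3-ASO mice and 1.13 to 2.35 in the other control ASO mice. That same mouse had 365 CPM of skeletal actin (Acta1) and 64.4 CPM of muscle creatine kinase (Ckm), while Ckm was at most 0.252 CPM in every other mouse. Cox7a1, the only one of the 3 that was tested, was lower in Smyd3-ASO over untreated (-0.96 ± 0.38, adjusted p = 0.0494) and in P133 over untreated (-1.08 ± 0.39, adjusted p = 0.047), calls that ended under 13 of 19 and 14 of 17 settings. Cox4i2, known from lung, stayed at or under 1.87 CPM in all mice, and Cox6b2, known from testis, at or under 1.42 CPM.

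**Figure D5:**
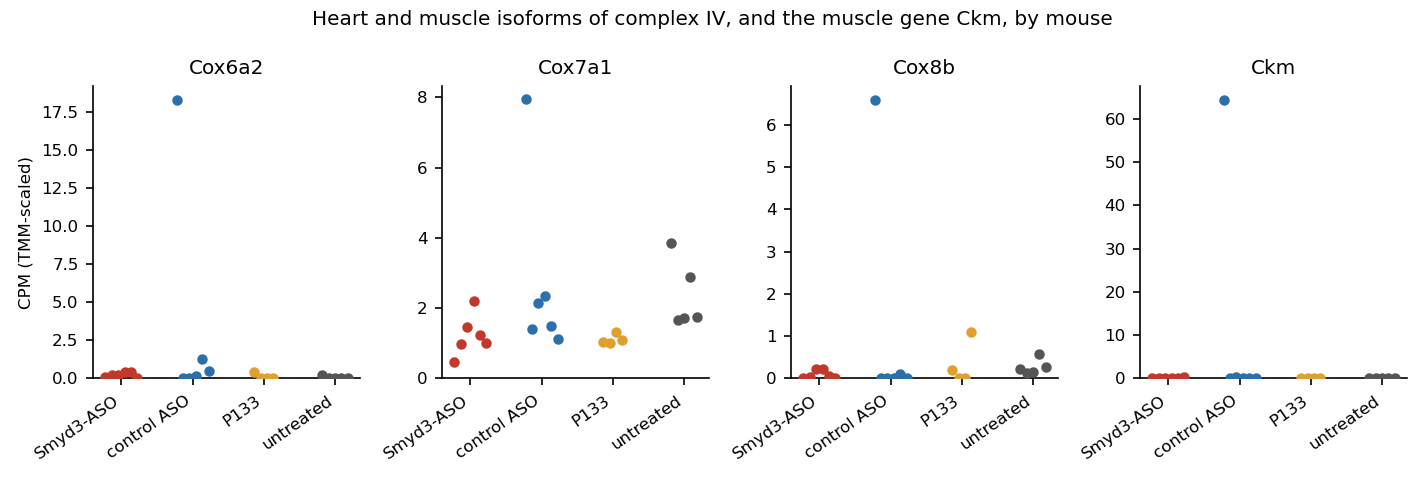
TMM-scaled CPM (y axis) of 3 heart and muscle isoforms of complex IV and of Ckm for each mouse (points) in the 4 groups (x axis). Control ASO mouse 1 is the single high point in each panel, at 18.3 (Cox6a2), 7.95 (Cox7a1), 6.59 (Cox8b) and 64.4 CPM (Ckm).

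In complex V, 5 of 17 genes were higher in Smyd3-ASO over control ASO, against 13.3% of all genes and 19.4% of abundant genes. Atp5o, the subunit at the top of the peripheral stalk, ran from 596 to 1342 CPM (median 1022) in Smyd3-ASO livers and from 320.3 to 755 CPM (median 448) in control ASO livers. It had 430.1, 1045, 454 and 632 CPM in P133 livers, and 576, 557, 997, 1000.5 and 747 CPM in untreated livers. Smyd3-ASO mouse 6 lay below control ASO mice 1 and 3, and P133 mouse 2 stood high in its group. The change over control ASO was 0.99 ± 0.25, adjusted p = 0.0108. Atp5l, subunit g of the membrane part, ran from 519 to 1498 CPM (median 1160.2) in Smyd3-ASO livers and from 458 to 765 CPM (median 599.9) in control ASO livers, a change of 0.89 ± 0.23, adjusted p = 0.0118. Smyd3-ASO mouse 6 was far below its group for Atp5l. Atp5l2-ps, a processed pseudogene left out of the members, held 153902 counts, against 219045 for Atp5l. Whether reads were shared between them was not tested. Atp5a1, the alpha subunit of the catalytic head, ran from 684 to 1272 CPM (median 941) in Smyd3-ASO livers and from 447 to 688 CPM (median 549) in control ASO livers, a change of 0.76 ± 0.17, adjusted p = 0.00622, and was lower in control ASO over P133 (-0.56 ± 0.15, adjusted p = 0.0125), a call that ended with library totals and with the replicate block. The partner of Atp5a1 in the head, the beta subunit Atp5b, gave 0.09 ± 0.14 (adjusted p = 0.653) over control ASO. Atp5j2 and Atp5mpl, 2 small membrane subunits, were higher by 0.48 ± 0.16 and 0.38 ± 0.13, and each of these calls ended under 12 of 20 settings.

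Atp5k, subunit e of the membrane part, varied widely within untreated livers. It ran from 329 to 503 CPM (median 383) in Smyd3-ASO livers and from 227 to 422 CPM (median 345) in control ASO livers. It had 382, 414, 405 and 418 CPM in P133 livers, and 2110.2, 629.6, 1789.6, 641 and 407 CPM in untreated livers. Untreated mice 1 and 3 stood far above every other mouse, and untreated mouse 5 lay within the DEN range. Atp5k was lower in Smyd3-ASO (-1.54 ± 0.38, adjusted p = 0.0047) and in control ASO (-1.79 ± 0.40, adjusted p = 0.00316) over untreated, and both calls ended with library totals. Atp5j2 ran from 347 to 489 CPM (median 448) in Smyd3-ASO livers and from 234 to 422 CPM (median 288) in control ASO livers, with 345, 356, 358 and 368 CPM in P133 livers, and 747, 886, 695, 897 and 619 CPM in untreated livers. Untreated mice were above all others for Atp5j2, and it was lower in control ASO (-1.32 ± 0.18, adjusted p = 4.68e-05) and P133 (-1.10 ± 0.15, adjusted p = 7.64e-05) over untreated under every alternative. Atp5f1, subunit b of the peripheral stalk, split the Smyd3-ASO group, at 81.9, 84.7, 225, 209, 217 and 131 CPM, while control ASO livers ran from 168 to 211 CPM (median 184). Smyd3-ASO mice 1, 2 and 6 lay below every control ASO mouse for Atp5f1. It was lower in control ASO over P133 (-0.59 ± 0.12, adjusted p = 0.0024), a call that ended in the fit over all 4 groups. Coupling factor 6 (Atp5j) was the member higher in control ASO over P133 (0.42 ± 0.14, adjusted p = 0.0375), a call that ended under 9 of 18 settings.

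The c-ring, the rotor that protons turn, is built from 1 protein encoded by 3 genes with different leader peptides. Atp5g1 averaged 129.6 ± 18.8 CPM in Smyd3-ASO livers, 128 ± 32.9 in control ASO, 153 ± 5.37 in P133 and 196 ± 30.4 in untreated livers (SD, n = 6, 6, 4 and 5). It was lower over untreated in Smyd3-ASO (-0.62 ± 0.15, adjusted p = 0.00444) and in control ASO (-0.61 ± 0.17, adjusted p = 0.00933) with TMM, and both signs turned with library totals. Atp5g2 passed in none of the 5 comparisons, with Smyd3-ASO livers at 154 to 159 CPM and untreated livers at 193, 106, 247, 91.2 and 109 CPM. Untreated mice 1 and 3 were again the high ones. Atp5g3 ran from 2717 to 4449.7 CPM (median 3608) in Smyd3-ASO livers and from 2166 to 3112 CPM (median 2608) in control ASO livers, which did not pass (0.42 ± 0.16, adjusted p = 0.067), and was lower in control ASO over P133 (-0.49 ± 0.15, adjusted p = 0.0233). That call ended under 5 of 18 settings, among them leaving out P133 mouse 1, 2 or 4. Atp5s, a factor tied to the enzyme and not a subunit of it, passed in none.

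Genes that serve the complexes were read from lists that hold no member. Of the 17 genes of the citric acid cycle and pyruvate dehydrogenase, 5 were higher and 0 lower in Smyd3-ASO over control ASO (median log2 change 0.23), among them Cs (citrate synthase, 1.06 ± 0.22), Fh1 (fumarase, 1.02 ± 0.23) and Dlst (0.90 ± 0.17). In control ASO over untreated 14 of the 17 were lower with TMM (median -0.55), led by Idh3a (-1.64 ± 0.20). Of 14 genes of coenzyme Q synthesis and cytochrome c, 4 were higher and 1 lower over control ASO, with cytochrome c itself (Cycs) at 0.64 ± 0.15. Assembly factors gave 1 of 15 higher for complex I, 1 of 4 for complex II, 0 of 6 for complex III, 8 of 24 for complex IV and 2 of 5 for complex V, with 1 lower in complex IV. Over untreated, 10 of the 15 complex I factors were lower in control ASO, led by Ecsit (-2.62 ± 0.33) and Timmdc1 (-1.68 ± 0.12). Of 78 mitochondrial ribosome proteins, 21 were higher and 0 lower in Smyd3-ASO over control ASO (median 0.19), and 56 lower and 1 higher in control ASO over untreated (median -0.55). In the same 2 comparisons, ATP and phosphate exchange had 0 of 7 called (median -0.04), then 3 lower and 0 higher (median -0.13). Mitochondrial import had 6 of 18 higher and 1 lower, then 9 lower and 1 higher. The cytosolic ribosome list, read beside them, had 23 of 95 higher and 6 lower, then 20 lower and 25 higher. Over all genes, 13.3% were higher and 12.9% lower in Smyd3-ASO over control ASO (19.4% and 12.6% of abundant genes), with a median of 0.01. In control ASO over untreated, 23.7% of all genes were higher and 22.2% lower (21.4% and 34.2% of abundant genes), with a median of 0.06. These calls over untreated are with TMM, and their counts with library totals were not computed.

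Among 16 known regulators of mitochondrial biogenesis, 0 passed in Smyd3-ASO over control ASO, and 2 were lower in control ASO over untreated with TMM, Polrmt (-0.61 ± 0.16) and Gabpa (-0.41 ± 0.16). Ppargc1a gave -0.62 ± 0.26 (adjusted p = 0.0858), Nrf1 -0.32 ± 0.17 (adjusted p = 0.182) and Tfam -0.18 ± 0.11 (adjusted p = 0.213) in Smyd3-ASO over control ASO. Subunits that the name rule leaves out also moved: Ndufab1 of complex I was higher by 0.91 ± 0.17, Usmg5 of complex V by 0.94 ± 0.22, and cytochrome c1 (Cyc1) was lower (-0.43 ± 0.15). Genes of these lists beyond the smallest adjusted p of each list were named after their values were seen.

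Counts were present on nuclear copies of mitochondrial genes. Of the annotated pseudogenes with counts, 16 aligned over at least 80% of their length and at 90% identity or more to a GENCODE transcript of the mitochondrial genome (blastn). A cluster of 7 on chromosome 1 (Gm28439, Gm10222, Gm28438, Gm28437, Gm10925, Gm28661 and Gm29216, from 24611535 to 24616197) was identical or nearly so over its aligned length to mt-Nd4, mt-Nd4l, mt-Nd3, mt-Co3, mt-Atp6, mt-Co2 and mt-Co1, with identities of 99.7 to 100%. Reads of these copies and of the mitochondrial transcripts cannot be told apart by sequence. The 16 summed to 41694 to 65439 CPM (median 60044) in Smyd3-ASO livers, 38508 to 67482 CPM (median 46275) in control ASO livers, 67256 to 93442 CPM (median 83793) in P133 livers and 107321 to 172062 CPM (median 155140.0) in untreated livers. As a share of all counts that was 5.64 to 7.65%, 4.90 to 7.91%, 6.71 to 9.44% and 6.66 to 11.6% in the same order. Of the 12 that were tested, 4 were higher and 0 lower in Smyd3-ASO over control ASO, and in control ASO over untreated all 12 were lower with TMM. Over all genes 13.3% were higher and 12.9% lower in the first comparison, and 22.2% were lower in the second (34.2% of abundant genes). The 12 are not separate results, as Gm28437 and Gm28438 of the cluster had nearly the same median in every group. The copy of mt-Co1, Gm29216, ran from 6315 to 8643 CPM in Smyd3-ASO livers and from 3369 to 6713 CPM in control ASO livers, and was higher over control ASO by 0.64 ± 0.19 (adjusted p = 0.0222).

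Members moved with one another to different degrees over the 21 mice. The correlation of a member's log2 CPM with the mean of the others, given as a description, was highest for Ndufa4 (r = 0.942) and lowest for Cox7c (-0.10), Atp5e (0.04), Atp5g2 (0.05) and Uqcrfs1 (0.06). With group means removed Cox7c reached 0.638. The 5 genes outside the members with the pattern most like the mean member, among 5024 genes as abundant as that limit of 4, were Alas2 (r = 0.953), Agmat (0.939), Gm29216 (0.928), Gm28661 (0.925) and Urah (0.918). All points share the TMM scaling. Alas2 is the erythroid enzyme of haem synthesis. Alas2 had 36.6 to 65.0 CPM in Smyd3-ASO livers and 21.3 to 52.7 in control ASO livers, with a log2 change of 0.72 ± 0.25 (adjusted p = 0.043), while the globins Hbb-bs and Hba-a1 went the other way, by -2.18 ± 0.30 and -1.89 ± 0.27.

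Markers of other cell types, and of hepatocytes, were read beside the members. Endothelial, B cell, macrophage and stellate cell markers are given for Smyd3-ASO over control ASO only. Over all genes 13.3% were higher and 12.9% lower there, and 14.4% and 12.6% in control ASO over P133. Over untreated with TMM it was 24.4% and 23.2% in Smyd3-ASO, 23.7% and 22.2% in control ASO, and 15.1% and 16.6% in P133. Of 6 hepatocyte markers, 4 were lower and 0 higher in Smyd3-ASO over control ASO. Over untreated with TMM, 5 of the 6 were lower in Smyd3-ASO, 3 in control ASO and 4 in P133, with 0 higher in each, and in control ASO over P133 1 was higher and 0 lower. Their summed levels were 17541 to 36027 CPM in Smyd3-ASO, 48388 to 68552 in control ASO, 38331 to 41098 in P133 and 49966 to 102284 in untreated livers, and none was at 0 throughout a group. The 3 erythroid markers summed to 426.9 to 1011 CPM in Smyd3-ASO, 1619 to 4221 in control ASO, 1010.2 to 1420 in P133 and 2405 to 6173 in untreated livers. In Smyd3-ASO over control ASO 2 of these 3 were lower and 1 higher. Over untreated with TMM 3 were lower in Smyd3-ASO, 2 in control ASO and 3 in P133, and in control ASO over P133 2 were higher.

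The 4 white fat markers summed to 4.24 to 104.2 CPM in Smyd3-ASO livers, 0.212 to 5.84 in control ASO, 5.54 to 55.5 in P133 and 0 to 0.779 in untreated livers, with Lep at 0 in every Smyd3-ASO and untreated mouse. Of the 3 tested, 1 was higher in Smyd3-ASO over control ASO, 1 in each ASO group over untreated and 3 in P133 over untreated, and 2 were lower in control ASO over P133. The 5 bile duct markers summed to 42.0 to 66.2 CPM in Smyd3-ASO, 54.5 to 124.8 in control ASO, 21.5 to 49.8 in P133 and 14.6 to 30.5 in untreated livers. Of the 3 tested, 1 was higher and 1 lower in Smyd3-ASO over control ASO, 2 were higher in each ASO group over untreated, 1 was higher and 1 lower in P133 over untreated, and 1 was higher in control ASO over P133. Of 4 endothelial markers, 2 were lower and 0 higher in Smyd3-ASO over control ASO, with sums of 93.3 to 117.5 CPM in Smyd3-ASO and 109.4 to 156.3 in control ASO livers. The 1 tested B cell marker was higher in Smyd3-ASO over control ASO, with the list at 0.757 to 2.15 CPM in Smyd3-ASO and 0.476 to 1.89 in control ASO livers. Of 4 macrophage and 4 stellate cell markers, 0 passed in Smyd3-ASO over control ASO. Nor did the 2 neutrophil, 1 pancreas and 1 brown fat markers tested. The brown fat marker was higher over untreated in each DEN group with TMM. Its list lay at 0.873 to 26.6 CPM in Smyd3-ASO, 0.884 to 6.96 in control ASO, 0.42 to 4.89 in P133 and 0 to 0.237 in untreated livers. The part of any of these cells in the members' levels was not tested.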

How the data were processed

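Gene counts deposited by the authors were used, taken from 3′ end libraries (QuantSeq FWD, per the labels' protocols) of 35 libraries from 21 mice. Libraries of the same mouse had been merged by the authors into 1 column. The 11 mice with several libraries were 5 Smyd3-ASO and 6 control ASO mice. The submitters' processing notes name HISAT2 2.1.0, DESeq and mm10; the counting program and its strand setting are not given in the sources used here. The authors' normalized table was not used. One member is counted but not reported here by name. Members and lists were chosen with earlier results of these data known. For each comparison the model held only the mice of its 2 groups, in edgeR 4.0.16 (R 4.3.3; filterByExpr, TMM, quasi-likelihood test, Benjamini-Hochberg adjustment over 15297 genes, threshold 0.05), and the script was tested on simulated data. Levels, per mouse, as a range or as a mean, are given for Ndufv3, Sdha, Cox4i1 and the c-ring genes. They are also given for the 3 members of each complex with the smallest adjusted p in Smyd3-ASO over control ASO, where called. Most of the largest called rises and falls per complex elsewhere, and most tissue isoforms, have them too. Sdhc, Uqcrb, Cox5a, Atp5j and Cox7a2l are given by change only. Alternatives were RLE and library totals scaling, DESeq2 1.42.0, limma 3.58.1 voom, no filter, a fit over all groups, thinned counts, a replicate block and leaving out each mouse. Pseudogene transcripts were aligned with blastn 2.17.0.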

Additional observations from a re-analysis of the deposited data

Results flagged for a closer look

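Among the named members, 136 groups of mice were searched for a single mouse far from the others (Dixon's ratio at the 95% level, which chance passes in about 1 of 20 groups), and 11 were found; over all members it was 23 of 328. Control ASO mouse 1 stood apart for 3 muscle isoforms, at 18.3 CPM of Cox6a2, 7.95 CPM of Cox7a1 and 6.59 CPM of Cox8b. In the Smyd3-ASO group, mouse 3 was high for Sdha (202.5 CPM), mouse 1 low for Sdhd (68.2 CPM) and mouse 6 low for Atp5l (519 CPM). In untreated livers, mouse 3 was high for Ndufs5 (76.3 CPM) and Cox4i2 (1.87 CPM), mouse 5 low for Atp5g3 (2256 CPM) and mouse 1 high for Cox6a2 (0.215 CPM). P133 mouse 1 was high for Cox6a2 (0.42 CPM). The untreated and P133 values of Cox6a2 and Cox4i2 rest on a few counts each.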

How the results depend on the processing

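Of the member calls, 15 of 24 in Smyd3-ASO over control ASO, 9 of 39 in Smyd3-ASO over untreated, 9 of 45 in control ASO over untreated, 6 of 28 in P133 over untreated and 6 of 22 in control ASO over P133 held under every alternative. Library totals changed most counts: 44 higher and 3 lower in Smyd3-ASO over untreated, 36 and 8 in control ASO over untreated, 24 and 5 in P133 over untreated, and 9 and 8 in control ASO over P133. Library totals turned the sign of 18 called members in Smyd3-ASO over untreated, 24 in control ASO over untreated and 6 in P133 over untreated, as they move the median of all genes there. Among them were Ndufb4 and Atp5j2 in Smyd3-ASO over untreated and Ndufa4, Ndufa5 and Cox5a in control ASO over untreated. Values that turned, called or not, included Sdhb (0.086) and Atp5g1 (0.27) in Smyd3-ASO over untreated, and Sdha (0.53), Cox7a2l (0.81), Atp5g1 (0.23), Atp5g2 (0.82) and Atp5g3 (0.66) in control ASO over untreated. The fit over all groups gave 1 lower member in Smyd3-ASO over control ASO and 0 higher in control ASO over P133, and DESeq2 gave 7 higher in P133 over untreated. The 1 lower member was Cox7a1 (-1.16), the muscle isoform that stood at 7.95 CPM in control ASO mouse 1.

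Leaving out 1 mouse gave 15 to 27 higher and 0 to 1 lower members in Smyd3-ASO over control ASO, 6 to 12 and 28 to 35 in Smyd3-ASO over untreated, 1 to 2 and 33 to 49 in control ASO over untreated, 1 to 5 and 21 to 37 in P133 over untreated, and 0 to 1 and 13 to 29 in control ASO over P133.

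Replicate numbers did not pair the mice: deviations of same-numbered mice correlated at -0.12 to 0.112, and 1 of 24 mice pairs correlated best with its own number. With the replicate block, 17 members were higher and 0 lower in Smyd3-ASO over control ASO, 12 and 29 in Smyd3-ASO over untreated, 1 and 35 in control ASO over untreated, 1 and 29 in P133 over untreated, and 0 and 7 in control ASO over P133. Of the 4 P133 libraries, 3 were the most shallow of the study.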
